A study of Homo sapiens with 32 samples.

Results

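Uracil-enriched regions of MMR-deficient HCT116 cells treated with 5-fluoro-2'-deoxyuridine (5FdUR) were compared with those of the same cells treated with raltitrexed (RTX), using both replicate libraries of each drug, 4 of the 32 samples of the series and 4 of the 15 pull-down samples with a region file. HCT116 cells, a line of human colorectal carcinoma, lack mismatch repair (MMR). Both groups, 5FdUR_UGI and RTX_UGI, stably expressed the uracil-DNA glycosylase inhibitor UGI together with EGFP after retroviral transduction and sorting. The 5FdUR_UGI cells received 20 µM 5FdUR for 48 h and the RTX_UGI cells 100 nM RTX for 48 h, so the times matched, and the doses differed and cannot be set on a common scale. Uracil-containing DNA was captured on a FLAG-tagged UNG mutant that binds uracil without cutting it (ΔUNG), and was sequenced beside its input. The paper states that the method detects fluorouracil in DNA too. DNA captured after 5FdUR can therefore carry either base, and these cannot be told apart here. Untreated UGI-expressing cells (NT_UGI) gave the background, and MMR-proficient UGI-expressing cells given the same drugs (5FdUR_UGI_MMR and RTX_UGI_MMR, 2 libraries each) were not used to choose any chromosome, locus or gene.

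Both drugs act on thymidylate synthase, the enzyme that methylates dUMP to dTMP. 5FdUR is phosphorylated to FdUMP, which traps the enzyme with its folate cofactor, and further phosphorylation gives FdUTP, a nucleotide that can itself enter DNA. RTX is a quinazoline antifolate that competes for the folate site, and it adds no fluorinated base. With either drug dUTP builds up and is used by DNA polymerases, and UGI keeps uracil-DNA glycosylase from cutting the uracil out again.

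Each region file lists stretches, built from windows of 100 bp, where the log2 ratio of pull-down to input coverage passed a threshold that the authors tuned for each library towards a like total length. The measure used throughout was therefore the covered share, the percentage of the known bases of a feature that lie in regions. The regions held 510 and 502 Mb in the 5FdUR libraries and 506 and 555 Mb in the RTX libraries, or 17.5 and 17.2% against 17.4 and 19.1% of the genome, and because these totals follow from the tuning they were not tested. The second 5FdUR library stood apart. Its lowest log2 value was 0.14 against 0.25 in the other libraries, and 314 of its 502 Mb reached 0.25. Across 29165 bins of 100 kb the covered shares correlated with r = 0.823 between the 5FdUR replicates and between 0.383 and 0.726 from drug to drug, a description over bins that share libraries and base composition. A feature was called separated when both libraries of one drug lay above both of the other, and the gap is the distance between the nearest libraries in percentage points. With 2 libraries against 2, an exact permutation test cannot give a two-sided p below 0.333, so single values carry no test. Tests across all bins or genes used limma, which pools the spread over features. The DNA came from whole cell populations, and a higher share cannot be told apart from more cells carrying uracil at that place.

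The main contrast lay in protein-coding genes. After RTX, 57.6 and 57.3% of region bases fell inside protein-coding genes, which make up 44.7% of the genome. After 5FdUR the same share was 44.1 and 41.7%. The drugs thus differed by 14.5 points, several times the spread between replicates, and RTX regions favoured genes while 5FdUR regions did not. The NT_UGI libraries gave 35.7 and 35.9%. Seen from the genes, 22.4 and 24.4% of gene bases were covered after RTX and 17.3 and 16.1% after 5FdUR. Exons followed, with 36.7 and 40.8% against 29.6 and 25%, and coding sequence too, with 37 and 41.5% against 30.4 and 27.2%. In the MMR-proficient cells the share of region bases inside genes was 57.5 and 58.1% after RTX and 43.3 and 38.2% after 5FdUR, the same order in libraries that had no part in the choice.

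Gene starts were the exception to the excess of RTX inside genes. Over the starts of all protein-coding genes (1 kb on each side) the drugs overlapped. There 39.7 and 35.8% of bases were covered after 5FdUR and 32.4 and 39.1% after RTX. Among the 11618 protein-coding genes of at least 20 kb, the window of 1 kb at the start was covered in 39.5 and 36.2% of bases after 5FdUR and in 28.5 and 35.0% after RTX. At 40 kb into the gene the order turned, with 26.2 and 21.1% after 5FdUR against 36.8 and 39.8% after RTX. At 20 kb before the start the values were 38.6 and 27.7% against 42.7 and 46.4%. Coverage after RTX thus dipped at the start between higher flanks, whereas after 5FdUR it was highest there, narrowly in replicate 1 and more plainly in replicate 2, and fell off inside the gene. In the MMR-proficient cells the dip after RTX was again present, 20.8 and 23.8% at the start against 37.9 and 41.7% at 5 kb inside, while 5FdUR gave 20.1 and 16.6% at the start against 19.1 and 16.6% at 5 kb before it and 18.4 and 16.1% at 5 kb inside, with little or no peak. The NT_UGI libraries also had less at the start, 1.06 and 1.09%, than at 5 kb, 4.87 and 4.85%. The coverage was smoothed over kilobases by the authors, so features narrower than that are blurred.

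The start and the body of a gene could therefore favour different drugs. In 268 of these genes, 2.31%, the start was higher after 5FdUR and the body higher after RTX, and the reverse was seen in 14 genes, 0.121%. The start (1 kb on each side) was separated in favour of RTX in 2672 of 19500 genes (13.7%) and in favour of 5FdUR in 2692 (13.8%). SP3, a GC-box binding transcription factor of chromosome 2, had 100 and 100% of its start covered after 5FdUR and 0 and 0% after RTX, but 29.1 and 4.58% of its body against 85.9 and 81.8%. FRZB, a secreted Wnt antagonist, had 100 and 100% against 0 and 3.15% at its start, and 22.1 and 11.3% against 88.5 and 93.9% over its body. PTGR1, a prostaglandin reductase of chromosome 9, had 100 and 100% against 0 and 0% at its start and 30.5 and 21.9% against 79.1 and 93.0% over its body. In ANKRD24, an ankyrin repeat gene of chromosome 19, and ITPRID2 of chromosome 2, start and body went together, at 0% in both 5FdUR libraries and 100% in both RTX libraries.

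The 250 bases before the starts of these 5 genes are shown from the RefSeq promoter table (GRCh38.p14). Chromosomes 8 and 18 were left out of this choice. Among the other genes of at least 20 kb matched in that table, these had the largest summed gap of start and body in their class, ties going to the longer gene. 5FdUR lay above at the start of the first 3 and RTX above at that of the last 2. The 5 genes were picked after their values were seen. Each is written 5′ to 3′ on the strand of its gene with every CpG in capitals. FRZB lies at chr2:182866638-182866887 and SP3 at chr2:173965374-173965623, both on the minus strand. PTGR1 lies at chr9:111599432-111599681 on the minus strand, ANKRD24 at chr19:4182439-4182688 and ITPRID2 at chr2:181891480-181891729 on the plus strand.
FRZB: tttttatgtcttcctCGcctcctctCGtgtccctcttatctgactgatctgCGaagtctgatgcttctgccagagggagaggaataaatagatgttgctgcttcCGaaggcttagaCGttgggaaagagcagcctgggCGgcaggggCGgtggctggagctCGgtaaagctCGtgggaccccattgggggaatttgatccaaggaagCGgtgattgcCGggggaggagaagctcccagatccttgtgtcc
SP3: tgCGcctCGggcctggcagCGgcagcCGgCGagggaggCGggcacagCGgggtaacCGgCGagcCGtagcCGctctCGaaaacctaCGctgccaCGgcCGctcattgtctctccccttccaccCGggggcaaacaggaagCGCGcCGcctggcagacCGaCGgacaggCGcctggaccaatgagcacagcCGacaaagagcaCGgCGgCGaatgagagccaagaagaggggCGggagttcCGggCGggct
PTGR1: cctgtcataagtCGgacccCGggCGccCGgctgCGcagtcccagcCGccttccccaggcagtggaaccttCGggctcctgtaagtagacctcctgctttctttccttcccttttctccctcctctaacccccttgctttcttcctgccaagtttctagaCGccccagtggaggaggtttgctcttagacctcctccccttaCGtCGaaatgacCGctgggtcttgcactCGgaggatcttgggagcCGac
ANKRD24: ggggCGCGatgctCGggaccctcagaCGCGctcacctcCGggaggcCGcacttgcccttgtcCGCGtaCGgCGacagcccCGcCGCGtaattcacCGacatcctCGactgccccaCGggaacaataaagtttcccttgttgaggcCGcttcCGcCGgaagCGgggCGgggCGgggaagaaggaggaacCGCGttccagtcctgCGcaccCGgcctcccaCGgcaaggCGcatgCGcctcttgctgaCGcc
ITPRID2: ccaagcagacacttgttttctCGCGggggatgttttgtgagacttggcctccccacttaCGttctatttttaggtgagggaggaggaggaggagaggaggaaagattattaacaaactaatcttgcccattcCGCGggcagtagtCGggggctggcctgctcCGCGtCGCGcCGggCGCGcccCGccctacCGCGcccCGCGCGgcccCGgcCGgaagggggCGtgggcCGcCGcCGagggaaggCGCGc
The stretches hold 11 CpG in FRZB, 29 in SP3, 13 in PTGR1, 31 in ANKRD24 and 27 in ITPRID2, so CpG-rich starts occurred on both sides. All 5 promoters (250 bases before to 50 after the start) contained GGGCGG and none contained TATAAA on either strand.

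Over the genes as a whole, promoter sequence separated the drugs little. Of the 19500 genes, 14991 matched the promoter table by symbol and 12683 had their start within 1 kb of it. Among the 1780 with a start higher after 5FdUR, 74.6% were CpG-rich (GC of at least 50% and an observed over expected CpG ratio of at least 0.6), against 70.3% of the 1699 with a start higher after RTX and 67.8% of all. GGGCGG was present on either strand in 67.3%, 65.0% and 61.9%, CCAAT in 32.9%, 39.2% and 36.3%, and TATAAA in 7.87%, 7.47% and 8.74% in the same order. Each motif was counted by itself, and matches of different motifs can overlap only at their ends. A match is a string of letters and not a binding site.

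The chromosomes split into 2 sets. Of the 23 chromosomes 1 to 22 and X, 10 (43.5%) were covered more in both RTX libraries than in both 5FdUR libraries, namely 1, 3, 11, 12, 14, 15, 16, 17, 19 and 22. Another 9 (39.1%) were covered more in both 5FdUR libraries, namely 4, 5, 6, 8, 10, 13, 18, 21 and X, and on 2, 7, 9 and 20 the libraries overlapped. The gene-rich chromosomes led the RTX set. Chromosome 17 was covered to 39.8 and 43.5% after RTX and 30.5 and 22.2% after 5FdUR, a difference of means of 15.3 points. Chromosome 19 had 32.8 and 37.6% against 22.6 and 19.5%, a difference of 14.1 points, and chromosome 22 had 35.4 and 39.5% against 29.4 and 27.1%, a difference of 9.17 points. Untreated cells sat far below both, with 3.52 and 4.18% on chromosome 17 and 1.27 and 1.75% on chromosome 19. Chromosomes 16 and 12 followed with differences of 7.05 and 6.19 points.

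On the 5FdUR side the differences were smaller. Chromosome 13 was covered to 11.6 and 15.1% after 5FdUR and 8.08 and 8.90% after RTX, and chromosome 6 to 18.4 and 20.1% against 14.1 and 15.1%, differences of -4.90 and -4.70 points for RTX minus 5FdUR. Chromosomes 18, 21 and 4 gave -4.02, -3.92 and -3.90 points. On chromosome 13 untreated cells, at 20.8 and 19.4%, lay above both drugs. When every library was held to a lower limit of 0.25 on the log2 value, which leaves 314 Mb in the second 5FdUR library and all regions of the others, the 10 RTX chromosomes were all separated again and 0 of the 9 5FdUR chromosomes were. Without that library altogether the split was again 10 and 9, though leaving out a library cannot undo a separation. The nearest cases were chromosome 3, just inside with 16.4 and 17.9% after RTX against 16.0 and 15.0%, and chromosome 2, just outside with 17.2 and 18.6% against 18.4 and 18.5%. In the MMR-proficient cells 9 of the 10 RTX chromosomes and 9 of the 9 5FdUR chromosomes were separated in the same direction, and chromosome 22 was not.

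At the scale of 100 kb, 5570 of 29165 bins (19.1%) were higher in both RTX libraries and 6210 (21.3%) in both 5FdUR libraries. With limma, 2912 of the 12691 bins tested (22.9%) were called higher after RTX and 2615 (20.6%) higher after 5FdUR at a Benjamini-Hochberg adjusted p below 0.05. No bin passed in limma when either RTX library was left out, where 1588 to 1806 bins towards RTX and 1223 to 1369 towards 5FdUR had an unadjusted p below 0.05. The calls thus needed both RTX libraries, whose shares correlated with r = 0.983. Without the second 5FdUR library 876 and 1727 bins passed. Without the first 5FdUR library 15970 bins were separated towards 5FdUR. A gap of at least 20 points was found in 2919 bins (10%) for RTX and 2162 bins (7.41%) for 5FdUR. Adjacent bins of that kind formed 970 runs for RTX, the longest of 2.8 Mb, and 1084 runs for 5FdUR, the longest of 1.9 Mb. RTX runs were the longer, with 190 against 64 of at least 500 kb.

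The 6 longest runs in each direction name the loci, and since the gap chose them their values are a description. Of the RTX loci 5 are described. The longest for RTX was chr3:48000001-50800000, with 89 protein-coding genes, among them the guanine nucleotide exchange factor DOCK3, the microtubule-associated MAP4 and the RNA-binding protein RBM6. It was covered to 81.5 and 89.5% after RTX and 23 and 7.73% after 5FdUR. The next was chr1:154900001-157100000 with the histone methyltransferase ASH1L, ARHGEF11 and GON4L, at 86.3 and 92.6% against 30.8 and 6.65%. In both places the RTX libraries were far above the 5FdUR libraries, and untreated cells had at most 0.661% of bases covered. The locus chr19:17200001-19200000, with MYO9B, CRTC1 and UNC13A, had 74.8 and 84.0% against 20.0 and 6.31%. Gene density was high in these 3 RTX loci, with 78 to 89 genes each. The locus chr20:34200001-36000000, with PHF20 and the ubiquitin ligase ITCH, had 85.5 and 91.1% against 32 and 2.46%. The locus chr12:122100001-123900000, with the dynein heavy chain DNAH10, PITPNM2 and CLIP1, had 70.6 and 79.9% against 21.6 and 3.70%. In all 6 RTX loci the first 5FdUR library lay above the second.

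The 5FdUR loci were shorter and held fewer genes, 3 to 16 each. The longest, chr2:233700001-235600000, holds AGAP1 and the UGT1A cluster of glucuronosyltransferases, overlapping genes that share their last exons, among them UGT1A8 and UGT1A10. It was covered to 85.0 and 84.4% after 5FdUR and 18.4 and 23.5% after RTX. The locus chr10:29700001-30900000, with supervillin (SVIL), ZNF438 and JCAD, had 84.5 and 85.4% against 13 and 17.4%. These 5FdUR pairs were closer together than at the RTX loci. The locus chr20:56400001-57400000, with the growth factor BMP7, RTF2 and CASS4, had 74.4 and 80.7% after 5FdUR against 3.63 and 5.15% after RTX. The locus chr10:3000001-4000000, with phosphofructokinase PFKP, PITRM1 and KLF6, had 53.6 and 81.4% against 0.93 and 0.98%. The locus chr22:22100001-23100000, with RSPH14, GNAZ and ZNF280B, had 69.4 and 77.3% against 9.03 and 16.6%, on a chromosome that as a whole was covered more after RTX. The locus chr5:55700001-56800000, with SLC38A9, ANKRD55 and the germline helicase DDX4, had 60.8 and 66.8% against 5.68 and 5.05%. Untreated cells had at most 2.83% covered at the 6 loci.

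All 12 loci kept their direction in the MMR-proficient libraries, which had not chosen them. At the DOCK3 locus these gave 55.2 and 78.0% after RTX against 1.28 and 0% after 5FdUR, and at the AGAP1 locus 77.4 and 69.9% after 5FdUR against 23.2 and 20.4% after RTX. The narrowest was the MYO9B locus, with 20.9 and 54.1% after RTX and 0 and 0% after 5FdUR. Over all bins with a gap of at least 20 points, the MMR-proficient libraries were separated in the same direction in 97.6% of the RTX bins and 76.9% of the 5FdUR bins, against 24.2% and 49.0% of all bins for those directions.

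By gene, 7274 of 19500 protein-coding genes of at least 1 kb (37.3%) had a body covered more in both RTX libraries and 3560 (18.3%) a body covered more in both 5FdUR libraries. limma called 2051 of 14753 genes tested (13.9%) higher after RTX and 785 (5.32%) higher after 5FdUR. Leaving out 1 library gave 1360 to 3154 calls towards RTX (fewest without the second RTX library, most without the first 5FdUR library) and 334 to 1859 towards 5FdUR (fewest without the first RTX library, most without the first 5FdUR library). The imbalance depended on length. Among genes of 20 to 50 kb, 45.2% were separated towards RTX and 16.6% towards 5FdUR. Among genes over 300 kb the order turned, with 17.7% and 31.1%, at low shares in all libraries. Of the genes with a gap of at least 20 points, the MMR-proficient libraries were separated in the same direction in 4109 of 4727 (86.9%) for RTX and 933 of 1567 (59.5%) for 5FdUR, against 45.9% and 23.1% of all genes.

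The 12 genes of at least 20 kb with the largest gap towards RTX went from nearly nothing to nearly complete cover. They were TMEM67, a protein of the ciliary transition zone, ANKRD24, ITPRID2, the ring finger gene RNF141, the vesicle-tethering subunit TRAPPC6B, the ribosome assembly factor KRR1, ENSG00000285188, FANCD2OS, the RNA polymerase assembly factor RPAP3, the COPI coat subunit ARCN1, the translational repressor PAIP2 and the meiotic gene M1AP. They had 0 to 1.96% of bases covered in the 5FdUR libraries and 97.9 to 100% in the RTX libraries, with limma adjusted p from 0.0139 to 0.0212. The gap between these same libraries chose the genes, so their shares and p are a description. TMEM67 (chr8:93754844-93819234) had 0 and 0% after 5FdUR and 100 and 100% after RTX, and 18.5 and 22.4% in untreated cells. ARCN1 (chr11:118572390-118603033) had 1.96 and 0% against 100 and 100%. The value of 0.0139 was the lowest adjusted p that the fit gave.

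The 12 genes with the largest gap towards 5FdUR were the stress-response gene NDRG1, the proton pump ATP12A, FXYD2, a regulatory subunit of the sodium pump, the endoplasmic reticulum protein WFS1, the transcription cofactor LBH, the AMPA receptor auxiliary subunit CACNG8, the proteoglycan GPC1, PXDC1, the CD47 receptor SIRPA, FRMD1, the retinal opsin RGR and the calmodulin kinase CAMK1G. They had 93.2 to 100% of bases covered in the 5FdUR libraries and 0 to 6.23% in the RTX libraries, with limma adjusted p from 0.0139 to 0.0293. These too were chosen by the gap, and their shares and p are a description. NDRG1 (chr8:133237175-133302022) had 100 and 100% after 5FdUR, 0 and 0% after RTX and 0 and 0% in untreated cells. WFS1 (chr4:6269849-6303265) had 99.4 and 100% against 0 and 0.598%. All 24 genes were separated in the same direction in the MMR-proficient libraries. There the nearest libraries came closest in CACNG8, with 54.5 and 35.8% after 5FdUR against 1.83 and 34.1% after RTX. Their starts were separated in that direction too, but the start window overlaps the body that chose the genes, so this is not a separate result. The 2 sets differed in base composition, with a median GC of 40.7% in the RTX set and 51.7% in the 5FdUR set. Without the first RTX library 15 of the 24 lost their call and without the second 11 did.

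The genes were also grouped into 21 lists, and the examples given are mostly those with the largest gap, so their values are a description. The counts of each list are read against 37.3% of all genes separated towards RTX and 18.3% towards 5FdUR, and 13.9% and 5.32% called. In the pathway that both drugs hit, 10 of 22 genes of thymidylate, dUTP and folate one-carbon metabolism were separated towards RTX (45.5%) and 3 towards 5FdUR (13.6%), not far from the shares over all genes, and 5 and 0 of the 19 tested were called. The median difference over the 22 genes was 27.1 points towards RTX, against 1.2 points over all genes. SHMT2, the mitochondrial serine hydroxymethyltransferase (chr12:57229573-57234935), had 0 and 0% after 5FdUR and 92.5 and 88.8% after RTX (limma adjusted p = 0.0139). SAMHD1, a dNTP hydrolase, had 11.5 and 0.811% against 81.9 and 90.4% (limma adjusted p = 0.0378), and MTHFD1, a folate-interconverting enzyme, had 2.12 and 0% against 54.9 and 48.6% (limma adjusted p = 0.0307). These 3 showed no overlap between drugs and passed the test. TYMS, the thymidylate synthase gene and so the target itself, ran the other way, with 42.4 and 41.1% after 5FdUR and 0 and 5.65% after RTX, and just missed the threshold (limma adjusted p = 0.0539). DCTD, the dCMP deaminase that supplies dUMP, had 43.2 and 78.2% against 0.717 and 0% (limma adjusted p = 0.0543). DUT, the dUTPase gene, was uneven between 5FdUR replicates, with 1.54 and 50.9% against 0 and 0%, and a limma adjusted p of 0.306.

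Of 16 genes of uptake, activation and export of the drugs, 8 were separated towards RTX and 3 towards 5FdUR (18.8%), with 2 and 2 of 14 called and a median difference of 9.40 points, and the 5FdUR count was at the share over all genes. The drug exporters ABCC2 and ABCC3 were bare after 5FdUR, 0 and 0% each, and had 89.0 and 93.7% and 86.6 and 89.0% after RTX (limma adjusted p = 0.0139 for each). UMPS, which activates fluorouracil, had 3.55 and 3.18% against 89.5 and 56.6%, and the nucleoside transporter SLC29A2 had 18.4 and 0% against 88.7 and 100%, with limma adjusted p of 0.0566 and 0.063. The called genes on the 5FdUR side, named after their values were seen, were the uridine phosphorylase UPP1, at 46.8 and 72.3% against 0 and 0% (limma adjusted p = 0.0359), and the exporter ABCG2, at 52.0 and 51.4% against 18.6 and 17.1% (limma adjusted p = 0.0393).

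Among repair genes the 2 lists differed in their counts. Of 19 uracil base excision repair genes, 8 were separated towards RTX (42.1%) and 2 towards 5FdUR (10.5%), with 2 and 0 of 15 called and a median difference of 10.1 points, near the shares over all genes. MBD4, a glycosylase for mispaired uracil and thymine, had 16.6 and 0% after 5FdUR and 100 and 100% after RTX (limma adjusted p = 0.0411), and OGG1, the 8-oxoguanine glycosylase, had 8.10 and 1.31% against 80.1 and 88.5% (limma adjusted p = 0.0308). TDG, at 38.6 and 0% against 82.2 and 100%, and NEIL2, at 78.8 and 93.2% against 29.4 and 14.1%, missed the threshold with limma adjusted p of 0.127 and 0.0641. UNG, the glycosylase that UGI blocks, overlapped between drugs, with 32.6 and 68.8% after 5FdUR and 46 and 75.5% after RTX. Mismatch repair genes had the highest share towards RTX of the 21 lists, 14 of 22 (63.6%) with 1 towards 5FdUR. Of 17 tested, 3 and 0 were called, near the shares over all genes, and the median difference was 25.4 points. With only the highest regions up to 300 Mb, 8 and 1 of the 22 were separated, against 4223 and 2349 of all 19500 genes. There the genes of drug uptake, activation and export had the highest share, with 7 of 16 towards RTX. PMS2, a subunit of the MutL complex, had 2.62 and 8.38% after 5FdUR and 79.1 and 84.6% after RTX (limma adjusted p = 0.0279), and the clamp loader subunit RFC2 had 6.97 and 0% against 72.6 and 92.6% (limma adjusted p = 0.0454). RPA1 and RFC5 had limma adjusted p of 0.0758 and 0.118.

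Of 48 proteasome subunit genes, 25 were separated towards RTX (52.1%) and 3 towards 5FdUR (6.25%), with 11 and 0 of 40 called and a median difference of 39.7 points. Of 81 cytosolic ribosomal protein genes the counts were 38 (46.9%) and 6 (7.41%), with 14 and 1 of 65 called and a median difference of 33.4 points, and of 37 mitochondrial complex I genes 16 (43.2%) and 7 (18.9%), with 3 and 0 of 30 called and a median difference of 22.2 points. The complex I counts were close to the shares over all genes. PSMB6, PSMB11, RPL29 and RPL41 each had 0% in both 5FdUR libraries and 100% in both RTX libraries (limma adjusted p = 0.0139 each). PSMD9 had 2.37 and 0% against 87.5 and 87.1%, RPS25 6.41 and 0% against 100 and 100%, and NDUFC2 1.40 and 0% against 96.9 and 100%, with limma adjusted p of 0.0215, 0.0294 and 0.0248. PSMB6, PSMB11, RPL29, RPL41 and RPS25 are under 3 kb long, as are HOXD12, HOXD9 and FOXD2 among the developmental genes. This is shorter than the smoothing, so their values are those of the surrounding DNA. FOXF1, SIX2, HOXA11, PMAIP1 and GADD45A, named further on, are also shorter than the smoothing, and their values draw on the surrounding DNA too.

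Developmental genes went the other way. Of 39 HOX genes, which lie in 4 clusters and share regions, 0 were separated towards RTX and 18 towards 5FdUR, with 0 and 3 of 39 called and a median difference of -39.7 points. HOXD12 had 100 and 100% after 5FdUR and 0 and 0% after RTX, HOXD11 91.0 and 100% against 0 and 0%, and HOXD9 90.1 and 100% against 0 and 0%, with limma adjusted p of 0.0139, 0.0292 and 0.03. HOXA11, at 100 and 100% against 0 and 36.2%, had a limma adjusted p of 0.0727. In the MMR-proficient cells the HOX genes were divided, with 11 towards RTX and 10 towards 5FdUR. Of 154 other developmental transcription factor genes, 17 were separated towards RTX and 45 towards 5FdUR, with 2 and 18 of 130 called and a median difference of -21.7 points. FOXD2, SIX2, FOXL1 and FOXF1 had 100% in both 5FdUR libraries and 0% in both RTX libraries (limma adjusted p = 0.0139 each). Collagen genes gave 6 and 16 of 44, with 3 and 4 of 30 called and a median difference of -1.42 points. COL4A1, a basement membrane collagen on chromosome 13, had 70.6 and 89.3% after 5FdUR against 0.695 and 1.14% after RTX, and COL15A1 88.2 and 95.7% against 1.96 and 7.29%, with limma adjusted p of 0.0307 and 0.0294, while COL8A2 ran towards RTX with 17.7 and 16.3% against 100 and 100% (limma adjusted p = 0.0304). Voltage-gated ion channel genes gave 9 and 18 of 69, with 2 and 2 of 43 called.

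In some lists the counts rested on low or shared cover. Of 53 clustered protocadherin genes, which overlap each other, 2 and 18 were separated, but PCDHGA10 had 1.9 and 18.2% after 5FdUR against 0 and 0% after RTX, none of 26 was called, and with regions of at least 5 kb no member was separated either way. Of 20 very long genes at common fragile sites, 2 and 8 were separated, the only 1 tested was not called, and the levels stayed low, as in NBEA with 0.698 and 3.77% against 0.123 and 0%. Without the first 5FdUR library 17 of these 20 were separated towards 5FdUR, and without the second 8 were.

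The other lists were mixed. Of 28 colorectal cancer driver genes, 12 were separated towards RTX and 7 towards 5FdUR, with 2 and 2 of 22 called. SOX9, a transcription factor of the colonic crypt, had 100 and 100% after 5FdUR and 0 and 0% after RTX (limma adjusted p = 0.0139), and AXIN2, a feedback inhibitor of Wnt signalling, 100 and 100% against 8.16 and 31.1% (limma adjusted p = 0.0423). ZNRF3, a ubiquitin ligase for Wnt receptors, had 4.54 and 2.07% against 66.0 and 65.4% (limma adjusted p = 0.0201). Both SOX9 and AXIN2 lie on chromosome 17, the chromosome with the largest excess after RTX. Of 30 p53 target genes, 13 and 5 were separated and 1 and 2 of 24 called. GADD45A had 86.2 and 86.2% after 5FdUR against 0 and 0% after RTX and the nuclease AEN 70.02 and 78.1% against 0 and 0%, with limma adjusted p of 0.0139 and 0.0144. PMAIP1, a BH3-only cell death gene, had 100 and 100% against 51.2 and 9.28% (limma adjusted p = 0.0699). Solute carriers gave 128 and 87 of 337 with 29 and 14 of 270 called, numbered zinc finger genes 107 and 84 of 475 with 23 and 12 of 280 called, keratins 12 and 11 of 55 with 1 and 5 of 55 called, olfactory receptors 17 and 11 of 253 with 5 and 2 of 56 called, cadherins 5 and 4 of 23 with 1 and 0 of 10 called, and replication-dependent histones 3 and 2 of 18 with 0 and 1 of 13 called. The order of the counts was not stable in several of these lists. It turned to 4 and 5 in the driver genes and 2 and 4 in the olfactory receptors with only the highest regions up to 300 Mb. Without the first 5FdUR library it turned to 125 and 260 in the zinc finger genes, 5 and 15 in the cadherins and 5 and 7 in the histones. Leaving out a library can only add to such counts. Over all 19500 genes they rose there from 7274 and 3560 to 9117 and 6232. Median differences over these 8 lists ranged from -2.22 points in the zinc finger genes to 7.55 points in the p53 targets.

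Base composition and gene content were then examined jointly. The bases in regions had a GC content of 46.2 and 46.2% after 5FdUR and 44.8 and 45.2% after RTX, a difference of -1.17 points, against 40.9% in the genome. The bases shared by both 5FdUR libraries and absent from RTX, 103 Mb, had a GC of 47.5%, and those shared by both RTX libraries and absent from 5FdUR, 141 Mb, had 43.5%. Despite this, the 1835 most GC-rich bins, of at least 50% GC, were covered more after RTX, to 55.4 and 62.8% against 48.2 and 45.6%. Splitting the bins by gene content set these values apart. Among bins with no gene base and a GC of at least 46%, 49.6% were separated towards 5FdUR and 9.22% towards RTX. Among bins of the same GC that were partly in genes the figures were 26.5% and 49.99%, while at a GC below 39% they were 21.8% and 16.1% and from 39 to 46% 31.8% and 30.9%. Among bins wholly in genes, RTX led at a GC below 39% with 13.1% against 6.13% and from 39 to 46% with 23.9% against 14.5%, and 5FdUR led at 46% or more with 33.8% against 24.3%. Bins outside genes thus favoured 5FdUR in every GC class, by 10.9% against 1.97% in the lowest and 28.0% against 4.21% in the middle class. In the lowest class the covered shares overlapped, at 1.08 and 5.17% after 5FdUR and 1.09 and 1.0003% after RTX, with the second 5FdUR library alone above the rest. Bins separated towards RTX had a median of 78.7% of their bases in genes, those towards 5FdUR 32.5%, and all bins 39.6%.

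**Figure D1:**
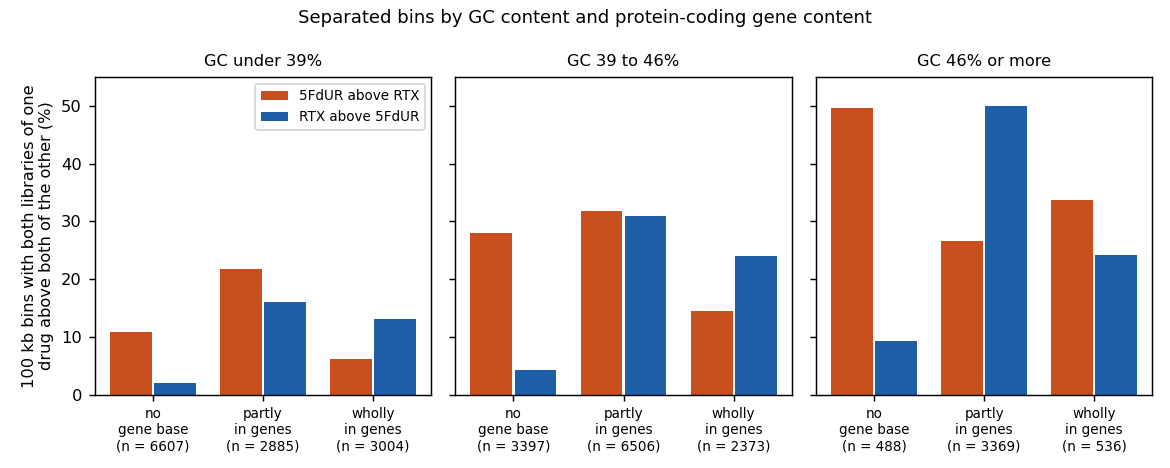
Percentage of bins of 100 kb with both libraries of one drug above both of the other, by GC content (panels) and by the share of the bin in protein-coding genes (groups of bars, with the number of bins). The orange 5FdUR bar reaches 49.6% in GC-rich bins without genes, and the blue RTX bar 49.99% in GC-rich bins partly in genes.

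The test of whether the drug difference itself depended on MMR status covered 16501 bins and called 726 of them (4.4%). In 565 of these the difference was shifted towards RTX in the MMR-deficient cells relative to the proficient ones, and in 161 towards 5FdUR. Among the 5570 bins separated towards RTX, 106 were called in this test, and among the 6210 towards 5FdUR, 158. No bin was called when any single RTX library, of either MMR status, was left out, while 2639 to 3734 bins had an unadjusted p below 0.05 in those fits, and without the second 5FdUR_UGI library 5768 were called.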

How the data were processed

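Pull-down and input DNA of HCT116 cells were sequenced. Per the labels and the submitters' processing notes, the authors aligned reads with BWA 0.7.17-r1194 to GRCh38, handled them with SAMtools 1.9-50 and Picard, and calculated smoothed coverage with deepTools 3.2.1. The deposited files used here list regions above a log2 threshold set for each library, and the log2 value of each region as the authors gave it. They hold no counts, so depth was not used and no counting interval was given, and precision rests on the 2 biological replicates of each group. The paper states that libraries were sequenced at BGI or at Novogene, and which library went where was not examined here.

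Groups came from the sample titles. Regions on chromosomes 1 to 22 and X were turned into covered shares of 29165 bins of 100 kb (at least 50% known bases), of 19500 protein-coding genes of at least 1 kb (GENCODE release 44) and of their starts. Shares were compared on the arcsine square root scale with limma 3.58.1 (eBayes with trend) over features with a mean share of at least 5%, at a Benjamini-Hochberg adjusted p of 0.05. The fit was tested on simulated data. Loci were the 6 longest runs of bins with a gap of at least 20 points in each direction, with up to 3 longest genes. Named genes were the 12 of at least 20 kb with the largest gap in each direction, spaced by 1 Mb, and in each of 21 lists up to 4 members with the largest gap. TYMS, DUT, UNG, UPP1, ABCG2 and the 3 genes whose start and body parted were named outside this rule, after their values were seen. Members, lists and tests were chosen with earlier results of these data known. Same-numbered libraries were not paired: their differences correlated with r = -0.171 over 12691 bins. Alternatives were other bin sizes, filters, scales, thresholds, merged files, a replicate block, all 14 HCT116 libraries in the fit, and leaving out each library. One RTX locus and some genes that the rule names are not reported here. Coverage tracks, input, mock and K562 samples were not used here. Python 3.11.15, NumPy 2.4.6, pandas 2.3.3, matplotlib 3.10.9 and R 4.3.3 were used.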

Additional observations from a re-analysis of the deposited data

Results flagged for a closer look

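In 726 bins of 100 kb the difference between the drugs depended on MMR status by the limma test of that difference. Of the 12 named loci, the SLC38A9, ANKRD55 and DDX4 locus of chromosome 5 held 2 such bins. At this locus RTX gave 5.68 and 5.05% in the MMR-deficient cells and 23.2 and 18% in the MMR-proficient cells. The gap that chose the loci came from the MMR-deficient libraries, which also enter this test.

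The same test passed in 4 of the 108 genes that the rule names. The limma adjusted p was 0.0266 for ABCC3, 0.0323 for GADD45A, 0.0029 for PSMB6 and 0.0323 for SLC39A5. Over all genes, 55 of the 7274 separated towards RTX and 34 of the 3560 towards 5FdUR passed. The gap that chose the named genes came from the MMR-deficient libraries, which also enter this test, so these p are a description. ABCC3, an organic anion exporter, had 86.6 and 89.0% of its bases covered after RTX in MMR-deficient cells and 0 and 3.92% in MMR-proficient cells, with 0% in all 4 5FdUR libraries. GADD45A, a p53 target, had 86.2 and 86.2% after 5FdUR in MMR-deficient cells and 0 and 0% in MMR-proficient cells. PSMB6, a catalytic proteasome subunit, had 100 and 100% after RTX in the MMR-deficient libraries and 0% in both MMR-proficient ones. SLC39A5, a zinc transporter, had 98.7 and 100% after RTX against 8.98 and 21.8% in the MMR-proficient libraries. GADD45A and PSMB6 are shorter than the smoothing, so their values draw on the surrounding DNA.

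In 4 genes the drugs stood in opposite order in the MMR-proficient cells, without a call in the test of that difference. Over all genes, the order was opposite there in 363 of the 3560 separated towards 5FdUR (10.2%). Of the 7274 separated towards RTX it was opposite in 52 (0.715%). PMAIP1 had 100 and 100% after 5FdUR and 51.2 and 9.28% after RTX in MMR-deficient cells, and 0 and 0% against 69.7 and 2.44% in MMR-proficient cells, where the means differed by 36.1 points towards RTX (limma adjusted p for the dependence on MMR status = 0.16). H2AC6, a histone gene, had 0 and 0% against 10.02 and 12.7% in MMR-deficient cells, and in MMR-proficient cells 53.1 and 50.9% against 0 and 36.2%, a difference of -33.9 points for RTX minus 5FdUR (limma adjusted p = 0.233). ABCG2 had 52.0 and 51.4% after 5FdUR against 18.6 and 17.1% after RTX in MMR-deficient cells and 41.5 and 41.2% against 48.0 and 66.4% in MMR-proficient cells, where the means differed by 15.9 points towards RTX (limma adjusted p = 0.203). DUT had 1.54 and 50.9% against 0 and 0%, and in MMR-proficient cells 0 and 0% against 35.4 and 12.9%, a difference of 24.2 points towards RTX (limma adjusted p = 0.217).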

How the results depend on the processing

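The excess of RTX over 5FdUR in the share of region bases inside genes and the direction of all 12 loci held under every setting run. For neither could leaving out a library have turned the direction, since both libraries of one drug lay above both of the other. The replicate block gives the same gene difference by construction. Regions of at least 5 kb, a log2 value of at least 0.25, the highest regions up to 300 Mb and merged files could have turned it. They gave gene differences of 14.99, 14.63, 15.27 and 14.97 points. The loci were chosen by that rule. Of 152 chromosome values under other settings 112 moved by less than the replicate spread. Leaving out 1 library could never pass that limit, so those values were fixed in advance. Another 35 moved by more without a change of direction, and 5 changed direction. Those that changed direction were chromosome 3 at -0.278 points (RTX minus 5FdUR) with the highest regions up to 300 Mb, and chromosomes 5, 8, 10 and X at 0.107, 0.296, 1.26 and 0.131 points with a lower limit of 0.25 on the log2 value of all libraries, where 10 chromosomes were separated in all. Among genes of the lists, H2BC21 at -4.09 and CDH3 at -7.83 points changed direction with the highest regions up to 300 Mb.

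With the highest regions up to 300 Mb, bins called numbered 1617 towards RTX and 1643 towards 5FdUR, bins separated 3112 and 3315, and genes separated 4223 and 2349. With bins of 50 kb, 4651 were called towards RTX and 10074 and 10073 separated, and with bins of 500 kb 815 and 895 were called and 1271 and 2007 separated. At a log2 value of at least 0.25, 1636 bins and 502 genes were called towards 5FdUR. With regions of at least 5 kb, 3877 bins were separated towards 5FdUR. With all 14 libraries in the fit, 4194 bins towards 5FdUR and 5837 and 2211 genes were called. On the percent scale 2117 bins depended on MMR status. The GC difference was -1.61 points with regions of at least 5 kb and -2.01 points at a log2 value of at least 0.25. The difference of start minus 40 kb, -20.8 points, became -16.6, -18.5 and -10.8 points with regions of at least 5 kb, a log2 value of at least 0.25 and the highest regions up to 300 Mb. The cause of these changes was not tested. Some settings leave fewer bases or features, and bins of 50 kb give more features. The fit of all 14 libraries and the percent scale keep the same features.

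With the replicate number as a block, limma called 2621 and 2504 bins and 0 genes in either direction, while 3155 and 1270 genes had an unadjusted p below 0.05; the fit has 1 residual degree of freedom. All 24 named genes lost their call there. With crossed pairs, chosen after seeing the data, 3778 and 3191 bins and 0 and 0 genes were called, with 4057 and 1373 genes at an unadjusted p below 0.05.

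Leaving out 1 library at a time, bins called ranged from 0 to 2747 towards RTX and from 0 to 3044 towards 5FdUR, bins separated towards 5FdUR from 6567 to 15970, genes called from 1360 to 3154 towards RTX and from 334 to 1859 towards 5FdUR, genes separated towards 5FdUR from 3964 to 6232, and bins that depended on MMR status from 0 to 5768. The counts of 0 bins came without the first or second RTX library, where limma gave 1806 and 1588 bins towards RTX and 1223 and 1369 towards 5FdUR at an unadjusted p below 0.05. The region files set no depth, and totals were fixed by the authors' thresholds, so more or less uracil overall cannot be read from them.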
